A study of Homo sapiens with 14 samples.

Results

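The genes described here encode 43 proteins of mitosis, the spindle and the kinetochore. They were chosen by name, from what the proteins do, with earlier results of these data known. Each was matched by symbol to the 78686 gene identifiers of the deposited tables. All 43 were found, 1 identifier each, and all 43 passed the filter on low counts in every comparison. By role they are 5 genes of the spindle checkpoint, 4 of the chromosomal passenger complex, 8 of the centromere and kinetochore, 4 of the release of sister chromatid cohesion, 9 of spindle assembly and its motors, 6 of the midzone and cytokinesis, 6 cyclins, CDK1 and partners of the anaphase-promoting complex (APC/C), and the transcription factor FOXM1.

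Most of these genes are transcribed late in the cell cycle, so that their RNA is most abundant in G2 and mitosis. In quiescent or arrested cells the DREAM complex represses many of them, and p53 acts on them largely through its target CDKN1A, which encodes the inhibitor p21. In cycling cells MYBL2 and FOXM1, working with the MuvB core of DREAM, and the CCAAT-binding factor NF-Y activate them. In bulk RNA, fewer cells in G2 and mitosis and less of a transcript per cell cannot be told apart.

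Every library came from HCT116, a human colorectal carcinoma line, that carried osTIR1(F74G) and SAF-A-mAID-Halo. All cells, vehicle controls included, carry a rice auxin receptor whose F74G form recognises 5-Ph-IAA, and SAF-A, the product of HNRNPU, fused to an auxin-inducible degron and a Halo tag. 5-Ph-IAA triggers degradation of such a fusion protein, and Nutlin blocks MDM2 and so stabilises p53. The time-course set held 5-Ph-IAA for 3 h, 5-Ph-IAA for 12 h and DMSO vehicle. The Nutlin set held 5-Ph-IAA plus Nutlin, 5-Ph-IAA alone and Nutlin alone, each for 3 h, and DMSO vehicle. The duration of DMSO is not labelled in either set. In the time-course set the same vehicle libraries served the 3 h and the 12 h comparison. Each group had 2 libraries, made from total RNA with a stranded kit. Whether the 2 libraries of a group were grown separately is not labelled, so the p-values speak for the spread among the libraries alone, which may be technical.

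Depth was 29578916 to 35140464 expected counts in 5 libraries of the time-course set, 3535163 in replicate 2 of the 12 h group, and 12646787 to 17233327 in the Nutlin set. HNRNPU stood at 671 and 636 CPM (counts scaled to library size) after 12 h of 5-Ph-IAA, against 509 and 544 CPM in vehicle, a log2 fold change of 0.31 (SE 0.063, edgeR adjusted p = 0.00744). The degron acts on the protein, so this RNA does not check its depletion. CDKN1A stood at 467 and 427 CPM with both agents and 205 CPM in each library with 5-Ph-IAA alone. It stood at 537 and 519 CPM with Nutlin, against 200.1 and 197 CPM in vehicle. Of 9 markers of colon epithelial lines, 6 exceeded 1 TPM (a level scaled to transcript length and library size) in every library, while CDX1 and CEACAM5 were at 0 everywhere. Of 12 markers of other cell types, 11 stayed under 1 TPM in every library, with a summed level of 0.58 to 2.26 TPM.

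Promoter letters were examined because 2 short elements are known to recur in this class of genes. The cell cycle homology region (CHR), TTTGAA or TTCGAA, is the site of MuvB, and CCAAT is the site of NF-Y. RefSeq windows on GRCh38.p14, from 250 bases before to 50 after the annotated start, were matched for 35 of the 43 genes. No window was matched for TTK, BUB3, KNL1, FOXM1, TPX2, AURKA, BIRC5 and UBE2C. Both strands were searched, and overlapping matches of the 2 elements would each count. A CHR was present in 25 of 35 windows (71.4%), against 16.6% of 27305 promoters in the table. At least 1 CCAAT was present in 29 of 35 (82.9%), against 35.7% of all promoters, and 2 or more in 18 of 35 (51.4%), against 11.3%. A match is a description of these letters and not a site.

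These 4 windows are shown because they belong to genes that moved in opposite directions at 12 h: ASPM (chr1:197146620-197146919, minus strand) and CDK1 (chr10:60778081-60778380, plus strand) were lower, CDC20 (chr1:43358731-43359030, plus strand) and KIF20A (chr5:138178862-138179161, plus strand) higher. Each is printed 5′ to 3′ on its gene's strand, with CHR and CCAAT matches, or their reverse complements TTCAAA and ATTGG, in capitals.
ASPM: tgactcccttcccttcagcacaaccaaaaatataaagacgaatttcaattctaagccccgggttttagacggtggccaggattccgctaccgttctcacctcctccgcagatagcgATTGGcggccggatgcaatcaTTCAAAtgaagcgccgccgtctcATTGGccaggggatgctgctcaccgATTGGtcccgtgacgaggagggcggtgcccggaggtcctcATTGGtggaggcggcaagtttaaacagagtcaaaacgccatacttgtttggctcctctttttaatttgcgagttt
CDK1: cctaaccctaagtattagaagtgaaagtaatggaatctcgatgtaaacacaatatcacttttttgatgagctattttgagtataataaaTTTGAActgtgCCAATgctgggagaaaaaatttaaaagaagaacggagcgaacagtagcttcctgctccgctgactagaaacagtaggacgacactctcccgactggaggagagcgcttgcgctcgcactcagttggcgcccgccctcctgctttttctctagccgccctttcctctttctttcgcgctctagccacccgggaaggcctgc
CDC20: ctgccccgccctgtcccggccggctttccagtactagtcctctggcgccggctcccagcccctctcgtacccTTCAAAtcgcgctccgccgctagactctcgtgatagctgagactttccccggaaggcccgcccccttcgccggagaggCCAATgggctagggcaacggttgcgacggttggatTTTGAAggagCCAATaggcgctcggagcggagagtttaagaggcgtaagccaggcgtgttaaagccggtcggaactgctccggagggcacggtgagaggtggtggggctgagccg
KIF20A: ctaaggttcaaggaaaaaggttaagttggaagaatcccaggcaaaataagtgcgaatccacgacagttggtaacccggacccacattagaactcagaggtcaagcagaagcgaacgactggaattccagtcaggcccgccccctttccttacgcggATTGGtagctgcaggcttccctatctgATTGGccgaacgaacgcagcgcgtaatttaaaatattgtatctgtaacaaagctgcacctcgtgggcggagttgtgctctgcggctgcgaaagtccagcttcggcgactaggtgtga
ASPM held 1 CHR and 4 CCAAT matches, CDK1 1 and 1, CDC20 2 and 2, and KIF20A no CHR and 2 CCAAT matches. A CHR stood in 7 of the 10 matched windows of genes lowered at 12 h, in 1 of the 2 of genes raised and in 17 of the 23 of genes not called. The share with a CHR was 70% among the matched genes that fell and 73.9% among those not called, a description without a test. It leaves out TTK, BUB3 and KNL1, which fell, and FOXM1 and TPX2, which rose.

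In vehicle cells of the time-course set, levels per transcript length ranged from 7.37 TPM for ESPL1, which encodes separase, to 246 TPM for BUB3, a checkpoint protein that docks at kinetochores. Next to BUB3 came CCNB1 (cyclin B1) at 234 TPM, PTTG1 (securin, the inhibitor of separase) at 215 TPM, UBE2C (an APC/C ubiquitin-conjugating enzyme) at 181 TPM and CDK1, the mitotic kinase, at 139.7 TPM. The order of neighbouring genes in this ranking was not tested. Lowest after ESPL1 were SGO1 (a protector of centromeric cohesion) at 7.64 TPM, SPC25 (an NDC80 complex subunit) at 7.98 TPM and FOXM1 at 8.97 TPM. Within a role the spread was wide. In the NDC80 complex, vehicle means were 30.5 TPM for NDC80, 23.3 TPM for NUF2, 14.4 TPM for SPC24 and 7.98 TPM for SPC25.

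**Figure D1:**
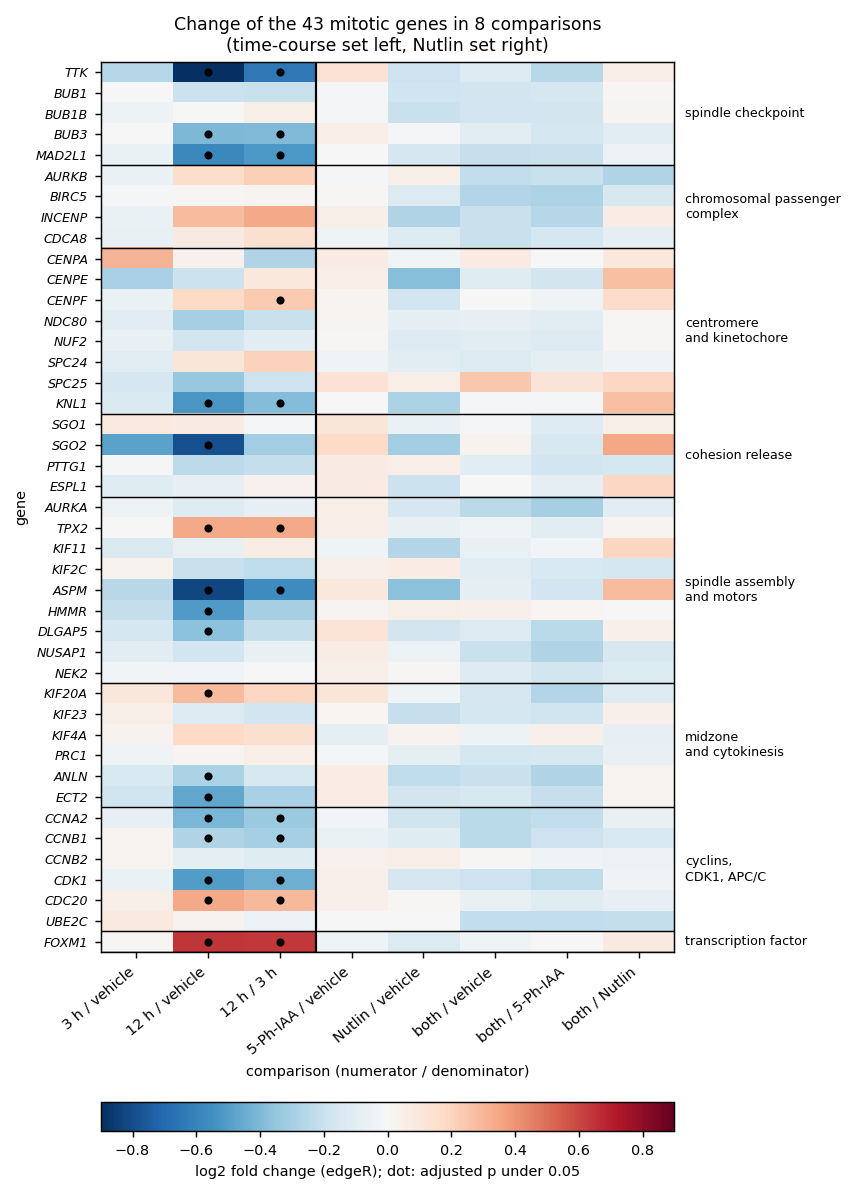
Log2 fold change of the 43 genes (rows, by role) in 8 comparisons (columns, numerator over denominator). Blue is lower and red higher in the numerator, and a dot marks an edgeR adjusted p under 0.05, reached by 17 genes at 12 h against vehicle, by 12 at 12 h against 3 h and by none elsewhere.

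The comparison of 12 h of 5-Ph-IAA with vehicle asked what prolonged treatment to deplete SAF-A changed. Here 17 of the 43 genes passed (39.5%), against 11.4% of the 19049 genes tested. Lowered were 13, among them the checkpoint kinase gene TTK, the spindle pole gene ASPM, CDK1, CCNA2 and the kinetochore scaffold gene KNL1. Raised were 4, FOXM1, CDC20, TPX2 and KIF20A. Among all genes tested, 7.97% were lower and 3.39% higher. The median log2 fold change of the 43 genes was -0.12, with 27 below 0, against -0.0031 over all genes. Of the 43, 22 were lower and 9 higher with no overlap between the libraries of the groups, where 27.9% and 22.9% of all genes were.

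In the spindle checkpoint, which holds anaphase until all kinetochores are attached, 3 of 5 genes fell and the others did not pass. TTK (ENSG00000112742.10, chromosome 6, 80003887 to 80042527, + strand), the kinase MPS1 that starts checkpoint signalling, had 82.0 and 82.5 CPM at 12 h, against 154 and 153 CPM in vehicle. All 4 libraries lay close to their group mean and the groups were far apart, with a log2 fold change of -0.90 (SE 0.080, edgeR adjusted p = 0.000171). MAD2L1 (ENSG00000164109.14, chromosome 4, 120055608 to 120067074, - strand), which inhibits CDC20, had 133 and 141 CPM at 12 h, against 202 and 204 CPM in vehicle, or -0.58 (SE 0.082, edgeR adjusted p = 0.00117). BUB3 had 354 and 358 CPM at 12 h, against 455 and 486 CPM in vehicle, or -0.40 (SE 0.063, edgeR adjusted p = 0.00202). In both genes the groups did not overlap. Of the partners that act beside BUB3, BUB1 was at -0.19 (edgeR adjusted p = 0.126) and BUB1B, the pseudokinase BUBR1, at 0.0047 (edgeR adjusted p = 0.985).

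The chromosomal passenger complex, which corrects faulty attachments and later steers cytokinesis, had 0 of 4 genes called by edgeR or DESeq2, with 1 at an unadjusted p under 0.05. INCENP, its scaffold, had 66.8 and 72.1 CPM at 12 h, against 53.6 and 59.6 CPM in vehicle, at 0.28 (SE 0.10, edgeR adjusted p = 0.0983). AURKB, its kinase, was at 0.16, CDCA8 (borealin) at 0.077 and BIRC5 (survivin) at 0.0087. All 4 values were above 0 and their median was 0.12. After a correction for transcript GC content 3 of the 4 were under 0 (BIRC5 at -0.13, CDCA8 at -0.043, AURKB at -0.017) and INCENP was at 0.11, so the direction of this group depended on it.

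At the centromere and kinetochore 1 of 8 genes fell. KNL1 (ENSG00000137812.21, chromosome 15, 40594020 to 40664342, + strand), the scaffold on which BUB proteins assemble, had 116 and 122 CPM at 12 h, against 166 and 174 CPM in vehicle, or -0.52 (SE 0.078, edgeR adjusted p = 0.0015). The 4 genes of the NDC80 complex, which binds microtubules, ranged from -0.34 for SPC25 to 0.11 for SPC24, and none passed. NDC80 itself lay just outside the threshold at -0.30 (SE 0.091, edgeR adjusted p = 0.0546). The motor CENPE was at -0.19, the large kinetochore protein CENPF at 0.18 and the centromeric histone CENPA at 0.036.

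Among genes that guard or release cohesion, SGO2, a shugoshin, had 33.8 and 54.8 CPM at 12 h, against 59.4 and 82.9 CPM in vehicle. Replicates of both groups differed widely although the groups did not overlap, at -0.79 (SE 0.22, edgeR adjusted p = 0.0338). The call was lost without 12 h replicate 1 and without vehicle replicate 2. PTTG1 was at -0.23, ESPL1 at -0.074 and SGO1 at 0.074, and none of them passed.

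Of 9 spindle genes 3 fell and 1 rose. ASPM (ENSG00000066279.19, chromosome 1, 197084128 to 197146694, - strand), which focuses spindle poles, had 80.0 and 91.5 CPM at 12 h, against 135 and 163 CPM in vehicle, or -0.82 (SE 0.11, edgeR adjusted p = 0.000779). HMMR, a spindle pole protein also known as a hyaluronan receptor, had 110.3 and 91.0 CPM at 12 h, against 140.2 and 152 CPM in vehicle, or -0.51 (SE 0.10, edgeR adjusted p = 0.00838). DLGAP5, which stabilises kinetochore fibres, had 157 and 152 CPM at 12 h, against 198 and 203 CPM in vehicle, or -0.37 (SE 0.073, edgeR adjusted p = 0.00654). The groups were apart in all 3 genes. TPX2, the activator of Aurora A, went the other way, with 352 and 344 CPM at 12 h, against 259 and 292 CPM in vehicle, or 0.34 (SE 0.074, edgeR adjusted p = 0.0114), a call lost without 12 h replicate 1. AURKA itself was at -0.12 and did not pass, nor did the motors KIF11 at -0.065 and KIF2C at -0.20, NUSAP1, which bundles microtubules, at -0.17 or the centrosomal kinase NEK2 at -0.022.

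Of 6 genes of the midzone and cytokinesis 2 fell and 1 rose. ECT2, the exchange factor that activates RhoA at the cleavage furrow, had 200.3 and 170.4 CPM at 12 h, against 253 and 266 CPM in vehicle, or -0.47 (SE 0.084, edgeR adjusted p = 0.00383). ANLN (anillin, a scaffold of the contractile ring) was at -0.28 (edgeR adjusted p = 0.0166), a call lost without 12 h replicate 1 and without vehicle replicate 2. KIF20A, the kinesin that carries the passenger complex to the midzone, had 227 and 224 CPM at 12 h, against 189.5 and 181 CPM in vehicle, or 0.29 (SE 0.071, edgeR adjusted p = 0.0219). That call was lost without either 12 h library and without vehicle replicate 2. The kinesins KIF4A at 0.18 and KIF23 at -0.12 and their partner PRC1, which crosslinks antiparallel microtubules, at 0.023 did not pass.

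Cyclins, CDK1 and the APC/C partners split, with 3 of 6 lower and 1 higher. CDK1 (ENSG00000170312.17, chromosome 10, 60778331 to 60794852, + strand) had 240.4 and 241 CPM at 12 h, against 344 and 337 CPM in vehicle, or -0.50 (SE 0.067, edgeR adjusted p = 0.000932). CCNA2 (cyclin A2) had 180.3 and 174 CPM at 12 h, against 229 and 243 CPM in vehicle, or -0.41 (SE 0.072, edgeR adjusted p = 0.00361). CCNB1 was at -0.27 (edgeR adjusted p = 0.0315), a call lost without either 12 h library and without vehicle replicate 1. CCNB2 (cyclin B2) at -0.081 and UBE2C at 0.034 did not pass.

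CDC20 (ENSG00000117399.14, chromosome 1, 43358955 to 43363203, + strand), the APC/C activator that MAD2L1 inhibits, had 269 and 297 CPM at 12 h, against 229 and 215 CPM in vehicle. It rose by 0.34 (SE 0.076, edgeR adjusted p = 0.0126), a call lost without 12 h replicate 2. FOXM1 (ENSG00000111206.13, chromosome 12, 2857681 to 2877155, - strand), the activator of many of these genes, had 58.5 and 62.7 CPM at 12 h, against 36.4 and 40.5 CPM in vehicle. Its groups were well apart and it rose by 0.64 (SE 0.11, edgeR adjusted p = 0.00336), the greatest rise of the 43.

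**Figure D2:**
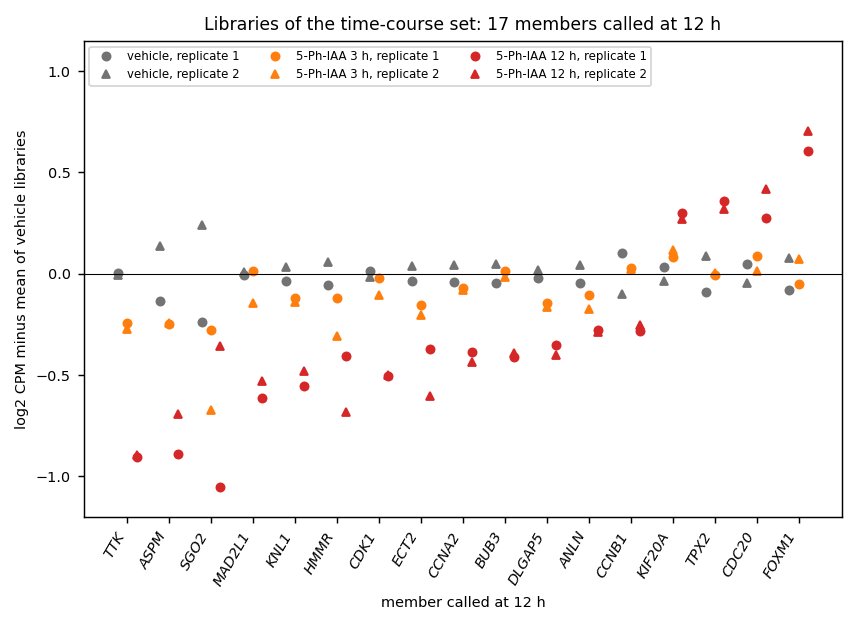
Each library of the time-course set as log2 CPM minus the mean of the vehicle libraries (y axis), for the 17 genes that passed at 12 h (x axis, in order of their fold change). Grey is vehicle, orange 3 h and red 12 h of 5-Ph-IAA, circles replicate 1 and triangles replicate 2. Both 12 h libraries of TTK lie near -0.90, SGO2 has the widest spread, and FOXM1 lies highest.

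Calls for 11 of the 17 genes held without any of the 4 libraries in turn, namely TTK, MAD2L1, BUB3, KNL1, ASPM, HMMR, DLGAP5, ECT2, CCNA2, CDK1 and FOXM1. Without 12 h replicate 1, which leaves the shallow library alone in its group, 2 genes were higher and 10 lower (4.67% of all genes called). The count higher was also 2 without 12 h replicate 2 (2.56% of all genes higher) and 3 without vehicle replicate 2 (2.68%).

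Transcript GC content was examined beside the 12 h changes because GC-poor genes were lower in these libraries as a class. GC of the longest annotated transcript ran from 34.7% (SGO2) to 59.6% (INCENP) over the 43 genes, with a median of 42.5%, against 48.5% over 17075 tested genes with a value. Across the 43 genes, the 12 h log2 fold change had a Spearman correlation of 0.74 and a Pearson correlation of 0.71 with GC, and across the 17075 genes a Spearman correlation of 0.34. All points come from the same 4 libraries, genes are not independent replicates, and GC also went with length (Spearman -0.36 over the 43).

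Below 40% GC, all 11 of the genes had values below 0 and 8 passed as lower, where 32.3% of 2573 genes in that range were lower and the median of the range was -0.37. From 40% to 45% GC, 5 of 15 were lower, where 13.0% of genes were. From 45% GC upward no gene of the 43 was lower, and the 4 that rose lay there, 2 of 7 between 45% and 50% (3.70% of genes higher), 0 of 5 between 50% and 55% (6.01%) and 2 of 5 above (5.81%). TTK, at 40.8% GC, stood at -0.90 where its range had a median of -0.15, and SGO2, at 34.7% GC, stood at -0.79 where its range had -0.37.

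After a GC trend was subtracted from each library, 10 of the 43 genes passed, 3 higher and 7 lower, against 4.62% of all genes. TTK (-0.72, edgeR adjusted p = 0.00154), ASPM (-0.46), MAD2L1 (-0.33), CCNA2 (-0.27), BUB3 (-0.24), FOXM1 (0.47) and TPX2 (0.31) passed with and without the correction. CDK1 was at -0.14 after it (edgeR adjusted p = 0.265), KNL1 at -0.22, SGO2 at -0.34, HMMR at -0.14, ECT2 at -0.16 and CDC20 at 0.17, and these no longer passed, nor did DLGAP5, KIF20A, ANLN and CCNB1. CENPF (0.36), PTTG1 (-0.31) and KIF2C (-0.30) passed after the correction and not before it. The correlation of the 43 changes with GC was then 0.26 and their median -0.060. The correction turned the sign of 12 of the 43 values, none of them called before it, among them CENPE (0.24) and KIF11 (0.23).

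With the correction and without 12 h replicate 1, 2 of the 43 passed (0.628% of all genes), and without 12 h replicate 2, 5 passed (3.74%). Of the 7 genes called with and without the correction, TTK alone passed in all 3 corrected fits. The 3 genes called only after the correction were not compared in this way. One of them, CENPF, was at 0.39 with it and without 12 h replicate 1. The correction removes any change that runs with GC, so the parts of GC and of the treatment in these changes cannot be told apart, and the cause of the trend was not tested.

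**Figure D3:**
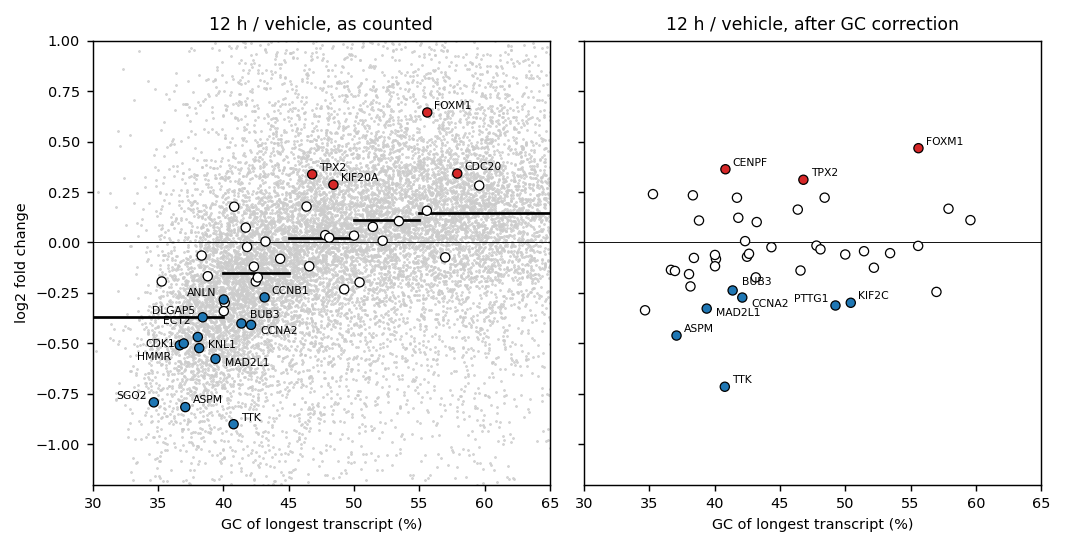
Log2 fold change at 12 h against vehicle (y axis) by GC percent of the longest transcript (x axis), as counted (left) and after GC correction (right). Large circles are the 43 genes, blue lower and red higher at an adjusted p under 0.05 and white not called. Grey dots (left) are all tested genes within the axes and black bars the median of each GC range, from -0.37 under 40% to 0.15 from 55%.

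Counts also depend on which isoforms the reads came from, since a shorter transcript yields fewer reads. The isoform-weighted length in the deposited tables was shorter at 12 h, with no overlap between groups, in 16 of the 43 genes (37.2%), against 23.0% of all genes, and longer in 5, against 9.29%. At 3 h it was shorter in 8 and longer in 6 (15.8% and 10.6% of all genes). MAD2L1 averaged 1141 bases at 12 h, against 1611 bases in vehicle, a change of -29.2%, and HMMR changed by -23.5% and BUB1B by -21.0%. For TTK the change was 1.88% and for CDK1 1.40%.

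In TPM, which divides by the effective length deposited beside that length, MAD2L1 had 96.0 and 109.9 TPM at 12 h. It had 92.1 and 102 TPM in vehicle, so that its groups overlapped. BUB3 had 221 and 240.1 TPM at 12 h, against 232 and 259 TPM in vehicle, and HMMR 42.7 and 44.9 TPM, against 36.8 and 56.3 TPM, both overlapping as well. TTK had 19.9 and 26.2 TPM at 12 h, against 40.8 and 42.1 TPM in vehicle, and CDK1 averaged 101 ± 3.20 TPM at 12 h and 139.7 ± 4.99 TPM in vehicle (SD, n = 2 each). These 2 genes were apart in counts and in TPM.

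The effective length in each library was then used as an offset in edgeR, called the isoform length offset. With it, 6 of the 43 genes passed, all lower and all among the 17, against 1.54% of all genes lower. They were TTK (-0.99, edgeR adjusted p = 0.0119), ASPM (-0.63), CDK1 (-0.59), CCNA2 (-0.47), DLGAP5 (-0.42) and ANLN (-0.40). MAD2L1 was then at -0.042, HMMR at -0.20, BUB3 at -0.21 and SGO2 at -0.45. These changes were much smaller than in the counts. Some other calls were lost at folds near those of the counts, with larger errors. Among them, FOXM1 was at 0.59 (SE 0.19), KNL1 at -0.55 (SE 0.16) and ECT2 at -0.40 (SE 0.10). CDC20 was at 0.29 (SE 0.084) and TPX2 at 0.28 (SE 0.086). CCNA2 also moved with the offset, though its isoform-weighted length was 2748 bases at 12 h and in vehicle, and why was not tested. Lengths from the shallow 12 h library rest on few reads, and whether the isoform shifts are real was not tested.

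**Figure D4:**
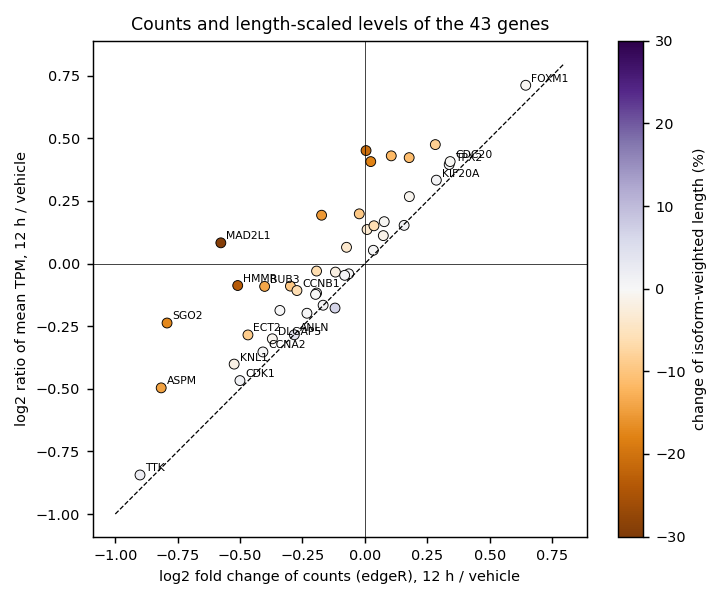
Log2 fold change of counts (x axis) and log2 ratio of mean TPM (y axis) at 12 h against vehicle for the 43 genes, coloured by the change of isoform-weighted length in percent. The dashed line marks equality. TTK and CDK1 lie near it, while MAD2L1, with a length change of -29.2%, lies well above it at a TPM ratio of 0.083.

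Between 12 h and 3 h of 5-Ph-IAA, which asked what changed in the later hours, 12 of the 43 genes passed, 8 lower and 4 higher, against 8.14% of all genes, 5.79% lower and 2.35% higher. TTK had 154 and 153 CPM in vehicle, 129.7 and 127 CPM at 3 h and 82.0 and 82.5 CPM at 12 h, so that each time lay below the one before it. At 12 h it fell by 0.64 relative to 3 h on the log2 scale (SE 0.079, edgeR adjusted p = 0.00135). MAD2L1 fell by 0.51, CDK1 by 0.44 and BUB3 by 0.40, and ASPM (-0.56), KNL1 (-0.39), CCNA2 (-0.33) and CCNB1 (-0.30) were lower too. FOXM1 had 36.4 and 40.5 CPM in vehicle, 37.1 and 40.4 CPM at 3 h and 58.5 and 62.7 CPM at 12 h, so that only the 12 h libraries stood apart. Between 12 h and 3 h it rose by 0.63 (SE 0.11, edgeR adjusted p = 0.00549), with TPX2 at 0.34, CDC20 at 0.29 and CENPF at 0.24.

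Of these 12 calls, TTK, MAD2L1, BUB3 and CDK1 held without each library in turn. The count was 5 without 3 h replicate 1 (3.14% of all genes), 7 without 3 h replicate 2 (4.53%) and 6 without 12 h replicate 1 (2.98%). After the GC correction 8 passed (4.06% of all genes). TTK (-0.51), MAD2L1 (-0.33), BUB3 (-0.28), FOXM1 (0.50), TPX2 (0.33) and CENPF (0.38) were called with and without it. CDK1 (-0.18), ASPM (-0.31), KNL1 (-0.17), CCNA2 (-0.23), CCNB1 (-0.22) and CDC20 (0.14) no longer passed, and CENPE (0.41) and KIF2C (-0.30) passed only after it.

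Both sets held a 3 h exposure to 5-Ph-IAA beside vehicle. In the time-course set 0 of the 43 genes passed by edgeR or DESeq2, with 6 at an unadjusted p under 0.05, and 0.0682% of all genes passed. Values below 0 were seen in 31 of the 43, with a median of -0.057, and 16 were lower with no overlap (37.2%), where 20.1% of all genes were. TTK, with the libraries above, was at -0.26 (SE 0.074, edgeR adjusted p = 0.544), CENPE at -0.29 (SE 0.091), ASPM at -0.25 (SE 0.098) and SGO2 at -0.48 (SE 0.20). SGO2 passed without vehicle replicate 1 (0.296% of all genes lower). The 11 genes under 40% GC were all below 0 at 3 h too, and the Spearman correlation of the 3 h changes with GC was 0.61 over the 43 genes and 0.16 over all genes with a value; its part in these values was not tested.

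In the Nutlin set the same 3 h exposure also gave 0 of 43 by edgeR or DESeq2, with 0 at an unadjusted p under 0.05, and 0.0% of all genes passed by edgeR. Here 30 of the 43 values were above 0, with a median of 0.043, and 12 were higher with no overlap (27.9%), where 14.7% of all genes were, and 3 lower, where 14.8% were. TTK was at 0.13 and SGO2 at 0.17 (SE 0.13), the opposite sign to the time-course set. The difference between sets, tested in a joint fit, was -0.37 for TTK (SE 0.11, edgeR adjusted p = 0.628) and -0.64 for SGO2 (SE 0.22, edgeR adjusted p = 0.707). None of the 43 passed that test in edgeR or DESeq2 (7 at an unadjusted p under 0.05, 0.0636% of all genes called), and none passed for the effect common to both sets (2 at an unadjusted p under 0.05, 0.0% of all genes called).

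Nutlin alone for 3 h, which asked what stabilised p53 did with SAF-A in place, gave 0 of 43 genes by edgeR or DESeq2, where 0.464% of all genes passed. The median was -0.12, with 34 of 43 below 0 and 6 at an unadjusted p under 0.05. From the lowest GC range to the highest, these 6 were 4 of 11, 2 of 15, 0 of 7, 0 of 5 and 0 of 5. Among all genes with a GC value they were 327 of 2436, 401 of 3377, 319 of 2921, 259 of 2506 and 418 of 4542. CENPE had 60.6 and 89.5 CPM with Nutlin, against 90.2 and 106 CPM in vehicle, at -0.38 (SE 0.16, edgeR adjusted p = 0.433). ANLN had 253 and 289.7 CPM with Nutlin, against 324 and 313 CPM in vehicle, at -0.23 (SE 0.092, edgeR adjusted p = 0.423). In both genes the groups did not overlap, CENPE by a narrow margin. SGO2 was at -0.31 (SE 0.13) and KIF23, the kinesin of the central spindle, at -0.21 (SE 0.090).

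In these genes the pair of Nutlin libraries differed. Replicate 1 was below replicate 2 in 34 of the 43, with a median difference of -0.24 on the log2 scale. Against the vehicle mean its median was also -0.24, and that of replicate 2 was 0.028. TTK had 76.5 CPM in Nutlin replicate 1 and 135 CPM in replicate 2, against 112 and 129 CPM in vehicle, and FOXM1 had 71.8 and 41.7 CPM, against 59.8 and 63.2 CPM. The difference between the replicates had a Spearman correlation of 0.79 with GC over the 43 genes and of 0.33 over 15782 genes, and the part of GC in it was not tested. For the 2 vehicle libraries of this set the same correlations were 0.61 and 0.27, with a smaller median difference of -0.040 over the 43. Comparisons with vehicle rest on that pair. Longer transcripts were also lower, with a Spearman correlation of -0.65 between the Nutlin change and transcript length over the 43 genes and of -0.19 over all genes.

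Without Nutlin replicate 1, HMMR was higher at 0.34 and FOXM1 (-0.56), ESPL1 (-0.47) and INCENP (-0.41) were lower, which made 4 calls (11.6% of all genes). Without Nutlin replicate 2, 16 genes were lower (4.15% of all genes lower), among them ASPM at -0.69, CENPE at -0.69, TTK at -0.66, KNL1 at -0.56, MAD2L1 at -0.53 and CDK1 at -0.52. Each of these fits takes the spread of the single Nutlin library from the other groups. None of the 4 genes is among the 16.

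5-Ph-IAA plus Nutlin was set against 5-Ph-IAA alone, the Nutlin response in cells given the degrader, and both of these groups had close replicates. By edgeR and DESeq2 0 of 43 passed, where 0.388% of all genes did by edgeR, and 6 of the 43 had an unadjusted p under 0.05. Of the 43, 39 were below 0, with a median of -0.16 against 0.00061 over all genes. In 32 of the 43 (74.4%) both libraries with both agents lay below both with 5-Ph-IAA alone, where 23.3% of all genes did, and in 2 both lay above, where 23.1% did.

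BIRC5 had 207 and 199 CPM with both agents, against 251 and 239 CPM with 5-Ph-IAA alone, at -0.27 (SE 0.095, edgeR adjusted p = 0.469). KIF20A had 173 and 172 CPM with both agents, against 207.3 and 207.0 CPM with 5-Ph-IAA alone, at -0.26 (SE 0.089, edgeR adjusted p = 0.468). AURKA had 112 and 110.3 CPM with both agents, against 145 and 129 CPM with 5-Ph-IAA alone, at -0.30 (SE 0.11, edgeR adjusted p = 0.482). ANLN was at -0.27 (SE 0.092). In each of these genes the groups did not overlap. In a fit of these 4 libraries only, BIRC5, KIF20A, AURKA, ANLN, NUSAP1, TTK, DLGAP5 and CDK1 were lower, at -0.30 to -0.23, and these 8 calls compare with 1.76% of all genes lower. That fit leaves out the Nutlin and vehicle libraries, and why it called more genes was not tested. In the fit of all 4 groups CDC20 was at -0.11, CCNB2 at -0.032, FOXM1 at 0.00080 and KIF4A at 0.047.

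Against vehicle, 5-Ph-IAA plus Nutlin gave 0 of 43 by edgeR and DESeq2, with 3 at an unadjusted p under 0.05, and 0.325% of all genes passed. The median was -0.11, 38 were below 0, and 25 (58.1%) were lower with no overlap, where 22.3% of all genes were. BIRC5 (-0.26) and CCNB1 (-0.24) passed in a fit of these 4 libraries only (0.84% of all genes lower). The comparisons with 5-Ph-IAA alone and with vehicle share the libraries given both agents.

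5-Ph-IAA plus Nutlin against Nutlin alone, and the interaction of the 2 agents, each gave 0 of 43 by edgeR and DESeq2, with 3 and 0 at an unadjusted p under 0.05, and 0.0% of all genes passed by edgeR in each. SGO2 was at 0.35 (SE 0.13), AURKB at -0.27 (SE 0.11), UBE2C at -0.22 (SE 0.093) and CENPF at 0.17 (SE 0.084) in the first of these. Both comparisons depended on the Nutlin pair. Without Nutlin replicate 1 there were 13 calls against Nutlin alone, 2 higher and 11 lower (13.6% of all genes), and 5 for the interaction, FOXM1 higher and PTTG1, CDK1, NUSAP1 and BUB3 lower (5.65%). Without Nutlin replicate 2 there were 4 and 0, with ASPM, CENPE, TTK and KNL1 higher with both agents (0.174% of all genes higher, and 0.0272% called for the interaction).

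**Figure D5:**
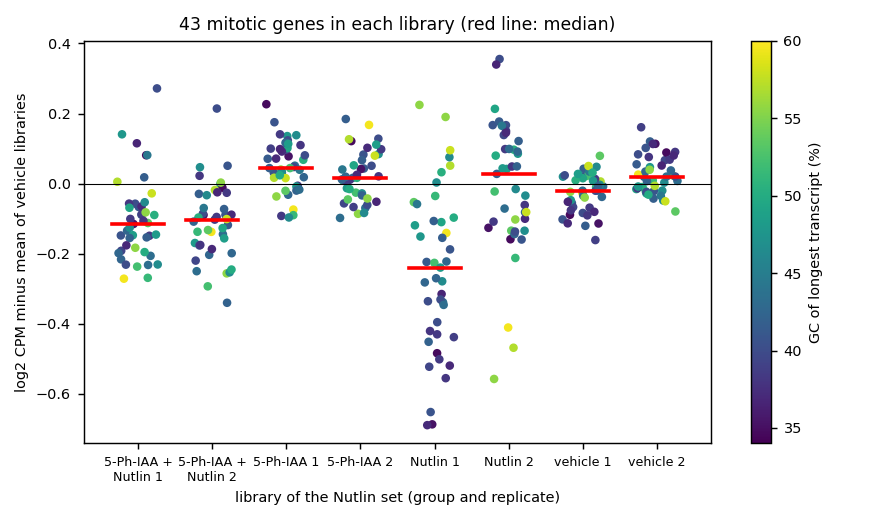
Log2 CPM of the 43 genes in each library of the Nutlin set minus the mean of the vehicle libraries (y axis), coloured by GC percent, with a red line at the median. Medians with both agents were -0.12 and -0.10, with 5-Ph-IAA alone 0.044 and 0.017, with Nutlin -0.24 and 0.028, and in vehicle -0.020 and 0.020. GC-poor genes lie lowest in Nutlin replicate 1.

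Other genes of the same processes were counted at 12 h against vehicle, from lists of genes that are not among the 43. They are to be read against the 7.97% of all genes that were lower and the 3.39% that were higher. Values with the GC correction, with the isoform length offset or without single libraries are not given for these lists. The part of GC and of isoform length in their calls was not tested. Of 28 partners of the inner and outer kinetochore 7 fell and 0 rose, led by KNTC1, a subunit of the ROD complex that brings dynein to kinetochores, at -0.67 (SE 0.082, edgeR adjusted p = 0.000643). Of 29 other spindle and cytokinesis genes 8 fell, among them PBK, a mitotic kinase, at -0.60, the kinesin KIF18A at -0.51 and DEPDC1 at -0.56, and 1 rose, NUMA1, which anchors spindle poles, at 0.37. Of 17 APC/C subunits and regulators 4 fell, CDC27 (-0.46), ANAPC4 (-0.59), ANAPC13 and ANAPC5, and UBE2S, which extends ubiquitin chains, rose (0.29).

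Of 8 genes of mitotic entry, ARPP19, which when phosphorylated inhibits the phosphatase PP2A-B55, fell by 0.79 (SE 0.075, edgeR adjusted p = 0.000229), having 169 ± 1.77 CPM at 12 h and 292 ± 15.2 CPM in vehicle (SD, n = 2 each), and WEE1, the kinase that holds back CDK1, fell by 0.48. Of 15 genes for DREAM, MuvB and NF-Y subunits and partners, LIN9 (-0.72) and MYBL2 (-0.59) fell (13.3% of the list called) and none rose. That share is near the share of all genes called in this comparison, so these few calls say nothing particular about the list. LIN9 is a subunit of the MuvB core and MYBL2 the factor that binds it in cycling cells.

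Expected counts are shared among genes whose reads cannot be told apart. NUSAP1, PRC1, CCNA2 and FOXM1 had counts that were not whole in all 14 libraries, SGO1 in 12 and KIF23 in 5. FOXM1 overlaps RHNO1 and ITFG2 on the opposite strand, CCNA2 overlaps EXOSC9, and KIF20A overlaps CDC23 and BRD8, and how strand was used in counting is not given in the sources used here, so reads of these pairs may be mixed. The 33 genes with whole counts in every library include TTK, MAD2L1, BUB3, ASPM, KNL1 and CDK1.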

How the data were processed

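Total RNA was sequenced in 14 libraries, 2 in each of 7 groups. The deposited tables give, per the file headers, an RSEM expected count, TPM, an isoform-weighted length and an effective length (values in bases) for each gene. The submitters' processing notes name STAR 2.7.10b, RSEM, DESeq2 1.48.1 and hg38/GRCh38. The annotation release and the strand setting are not given in the sources used here.

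Each expected count, as the authors deposited it, was rounded to a whole number. Each set was fitted with edgeR 4.0.16 in R 4.3.3 (TMM, filterByExpr with a minimum count of 10 and total of 15, quasi-likelihood test, prior count 2), and both sets jointly for the effect common to them and its difference. P-values were Benjamini-Hochberg adjusted over all genes tested, namely 19049 (time course), 17251 (Nutlin set) and 18873 (joint), with a threshold of 0.05. Counts of the 43 genes at an unadjusted p under 0.05 are printed without the share of all genes, except by GC range for Nutlin alone. Many genes outside the 43 also reached that level, so these counts are not results about the 43. SE is the size of the log2 fold change divided by the square root of F. CPM used TMM library sizes. Deposited TPM values were compared as they are. Positions and GC came from GENCODE 29, and 89.6% of tested genes in the time-course set had a GC value. The GC correction subtracted a lowess trend (span 0.3) per library. Scripts were tested on simulated data.

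The 43 genes and the other lists were chosen with earlier results of these data known. Values were given in full for up to 10 of the 43 that passed in each direction, by p, or the 4 with the smallest p where fewer than 4 passed. Of the other lists, up to 4 genes that passed were named. Genes outside this rule were named for their role. Alternatives were DESeq2 1.42.0, RLE size factors, no filter, a replicate block, the compared groups only, thinning, all libraries in 1 fit and leaving out each library. Added after the data were seen were the GC correction without either 12 h library, a length correction and the isoform length offset. Differences between replicates showed little correlation from group to group (-0.089 to 0.047 over 9 pairs), so the numbers were not taken as pairs. Within the 43 genes, however, the replicate differences of vehicle and of Nutlin in the Nutlin set both ran with GC (Spearman 0.61 and 0.79).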

Additional observations from a re-analysis of the deposited data

How the results depend on the processing

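With 2 libraries in a group, and 3535163 counts in 12 h replicate 2, small changes could be missed. At 12 h against vehicle, the 17 calls became 10 with the GC correction, 2 and 5 with it and without 12 h replicate 1 or 2, 6 with the isoform length offset, and 12 to 16 without single libraries. At 12 h against 3 h, the 12 calls became 5 to 10 without single libraries, 1 and 5 with the GC correction and without 12 h replicate 1 or 2, 3 with the isoform length offset and 5 with all 14 libraries in 1 fit. Where no gene passed, single libraries left out gave 0 to 1 calls at 3 h in the time-course set, 0 to 1 for the difference between sets, 0 to 16 for Nutlin, 0 to 13 for both agents against Nutlin and 0 to 5 for the interaction. Without the filter there was 1 call at 3 h in the time-course set and 1 for the difference between sets. Fits of the compared groups only gave 2 calls for both agents against vehicle and 8 against 5-Ph-IAA alone. With the replicate block the 12 h count against vehicle was 18, including all 17, the count against 3 h was 14, and no other comparison gained a call. SGO1 with 5-Ph-IAA against vehicle in the Nutlin set ranged from -0.011 to 0.24 without single libraries, below 0 without vehicle replicate 1. The cause of the other moves was not tested, beyond the smaller number of libraries where one was left out. The other 119 counts stayed within 1.5 times of their reported value. For 65 single-gene changes (every call, and the 4 smallest p-values where fewer than 4 genes passed), 749 values under an alternative kept their direction and side of the threshold, 136 lost the call, 13 gained it and 2 changed sign, the SGO1 value and SGO2 at 12 h, which was 0.10 with the GC correction and without 12 h replicate 1. Values of genes that were not called at 12 h changed sign more often, 12 of the 43 with the GC correction and 3 with the isoform length offset.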

Other observations

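Genes of S phase, which precedes the window of the 43 mitotic genes, were counted at 12 h of 5-Ph-IAA against vehicle as well. Of 26 such genes 2 rose and 2 fell, with a median log2 fold change of -0.11. Over all genes 3.39% were higher and 7.97% lower, so these few calls say nothing particular about S phase genes. POLE, the catalytic subunit of DNA polymerase epsilon, averaged 126 ± 3.95 CPM at 12 h and 94.3 ± 2.48 CPM in vehicle (SD, n = 2 each), and rose by 0.42 (SE 0.082, edgeR adjusted p = 0.00617). MCM3, a subunit of the replicative helicase, rose by 0.22. CCNE2 (cyclin E2) fell by 0.51 and SLBP, which binds histone mRNA stem-loops, fell by 0.34.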
